A study of Mus musculus with 24 samples.

Results

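The genes described here are 8 complement genes that macrophages can transcribe: *C1qa*, *C1qb* and *C1qc*, *C3*, *Cfb* and *Cfp*, and the anaphylatoxin receptor genes *C3ar1* and *C5ar1*. They were picked by symbol, and each symbol stood once among the 56691 genes of both deposited tables, so all 8 were found. Expression was measured by RNA-seq of poly(A) RNA in 24 mouse libraries, 12 of RAW264.7 cells and 12 of bone marrow-derived macrophages (BMDMs), with 3 libraries in each of 8 groups. In each cell type the groups were wild type with PBS, wild type with LPS, *Olfml3* knockout with PBS and *Olfml3* knockout with LPS. LPS (lipopolysaccharide), a cell wall component of Gram-negative bacteria, was given at 100 ng/mL for 4 h.

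RAW264.7 is a macrophage-like mouse line transformed by Abelson murine leukaemia virus. Its knockout libraries come from cells that received Cas9 and a guide RNA by lentivirus and were then sorted as single cells, so the knockout group is clonal, and effects of the clone and of the genotype cannot be told apart. BMDMs were grown for 6 days with 20% supernatant of L929 cells, a source of macrophage growth factor, from the marrow of 8-week-old male C57BL/6 mice, wild type or *Olfml3*-/-. Groups follow the sample titles, because the genotype entry of 12 of the 24 samples contradicts the title. The study calls the libraries of a group biological replicates, and neither source says whether they came from separate mice or cultures.

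Complement is a set of proteins that mark microbes and dying cells for removal. C1q, built of A, B and C chains, recognises the surface and starts the classical pathway. C3 is the central protein, whose cleavage leaves C3b on the surface, and factor B (*Cfb*) supplies the protease of the alternative pathway's C3 convertase, which properdin (*Cfp*) stabilises. The small fragments C3a and C5a are read by the receptors C3aR (*C3ar1*) and C5aR1 (*C5ar1*). The liver makes most C3 and factor B of the plasma, whereas tissue macrophages are a main source of C1q, and myeloid cells of properdin.

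Levels are given as scaled FPKM, that is FPKM (fragments scaled by exon length and library total) divided by the library's TMM factor (trimmed mean of M values). This matters here because the factors were 1.26 to 1.30 in the 6 BMDM libraries with PBS and 0.743 to 0.823 in the 6 with LPS. Total counts ran from 17121240 to 22873094 in BMDMs and from 11638273 to 16478616 in RAW264.7. Changes were tested with edgeR's quasi-likelihood test, in 1 fit per cell type over the genes with a mean of at least 5 counts, 14512 in BMDMs and 14161 in RAW264.7. A gene was called where the adjusted p (Benjamini-Hochberg over all genes tested) was under 0.05 and the fold at least 1.5. Log2 fold changes are given with their standard error (SE). In bulk RNA, fewer cells of a kind and less RNA per cell cannot be told apart.

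The targeted gene matched its labels in BMDMs, where *Olfml3* fell from 0.473 ± 0.0504 (SD, n = 3) to 0.012 ± 0.00995 scaled FPKM with PBS and from 0.334 ± 0.0113 to 0.00305 ± 0.00528 with LPS. In RAW264.7 it went against them: *Olfml3* stood at 0.154 ± 0.0249 in wild type and 0.865 ± 0.248 in the libraries labelled knockout with PBS, and at 0.202 ± 0.103 and between 19.7 and 20.3 with LPS. RAW264.7 groups are therefore called libraries labelled knockout throughout. Of 7 macrophage markers, all were read in BMDMs, with summed levels of 11660.4 to 16226 scaled FPKM, and RAW264.7 had 0 counts of *Mertk* in all 12 libraries. Markers of B cells, fibroblasts and red cells summed to at most 1.11 scaled FPKM in every library, while the neutrophil list summed to 3.63 to 4.98 in BMDMs with PBS and from 6.08 upwards with LPS, with 0 counts of *Ly6g*, and the T cell list reached 6.80 through *Cd4*, with 0 counts of *Cd3e*, *Cd3g* and *Cd8a*. The 4 LPS response genes *Tnf*, *Il1b*, *Nfkbia* and *Cxcl10* summed to at most 93.4 scaled FPKM in any library with PBS and to at least 2934 in any with LPS.

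All 8 genes lie on the minus strand. In GRCm38 with GENCODE M21, matched by gene identifier, the C1q genes form a row on chromosome 4: *C1qb* (ENSMUSG00000036905, 136880129 to 136886187), *C1qc* (ENSMUSG00000036896, 136889804 to 136893065) and *C1qa* (ENSMUSG00000036887, 136895917 to 136898803). Chromosome 17 holds *Cfb* (ENSMUSG00000090231, 34856374 to 34862518) and *C3* (ENSMUSG00000024164, 57203970 to 57228136). *Cfp* (ENSMUSG00000001128) lies on chromosome X from 20925454 to 20931555, *C3ar1* (ENSMUSG00000040552) on chromosome 6 from 122847138 to 122856161, and *C5ar1* (ENSMUSG00000049130) on chromosome 7 from 16246743 to 16259540. By the deposited coordinates, *Cfb* overlaps the readthrough gene *Gm20547* on the same strand, which had 0 counts in both tables. How shared reads were assigned is not given in the sources used here, so *Cfb* levels are uncertain.

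RefSeq promoter windows (GRCm38.p6) matched 6 of the 8 genes, *C1qb*, *C1qc*, *C3*, *C3ar1*, *C5ar1* and *Cfp*. Below are the 250 bases before the start of the 3 genes that carry the contrasts described next: *C3*, which had the largest LPS change of the 8 in BMDMs, *C3ar1*, which LPS moved in opposite directions in the 2 cell types, and *C1qb*, abundant in BMDMs and near absent from RAW264.7. Capitals mark the motif matches. They are read 5′ to 3′ along the gene, from chr17:57228137-57228386, chr6:122856158-122856407 and chr4:136886201-136886450, all minus strand.
C3: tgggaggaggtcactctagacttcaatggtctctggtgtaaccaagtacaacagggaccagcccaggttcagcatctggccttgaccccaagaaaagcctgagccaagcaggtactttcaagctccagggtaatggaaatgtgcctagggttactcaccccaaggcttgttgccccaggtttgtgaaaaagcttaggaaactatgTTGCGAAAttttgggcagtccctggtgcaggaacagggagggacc
C3ar1: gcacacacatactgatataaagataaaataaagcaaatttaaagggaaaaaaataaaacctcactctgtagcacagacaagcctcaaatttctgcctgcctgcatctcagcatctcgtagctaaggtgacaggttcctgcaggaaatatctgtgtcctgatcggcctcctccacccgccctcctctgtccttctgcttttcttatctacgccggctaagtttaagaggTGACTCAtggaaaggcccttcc
C1qb: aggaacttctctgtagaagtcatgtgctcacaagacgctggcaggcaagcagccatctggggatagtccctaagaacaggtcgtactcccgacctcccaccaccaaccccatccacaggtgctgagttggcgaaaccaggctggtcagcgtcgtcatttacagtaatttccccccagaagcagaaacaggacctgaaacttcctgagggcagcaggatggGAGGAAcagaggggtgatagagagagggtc

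Both strands of these windows were searched for 7 motifs. The capitals in *C3* are a C/EBP match (TTGCNNAA) from 45 to 38 bases before the start, a motif held by 9.56% of all 32851 windows of the same length. In *C3ar1* they are an AP-1 match (TGANTCA) at 22 to 16 bases, held by 6.75% of windows, and in *C1qb* a PU.1 core (GAGGAA) at 30 to 25 bases, held by 23.3%. *C1qc* had a PU.1 core on the other strand, 193 to 188 bases before the start. No window of the 6 held the interferon-stimulated response element (2.98% of all windows), the GAS element TTCNNNGAA (7.02%), the NF-kB site (0.356%) or the CLEAR site CACGTG (6.02%), and those of *C5ar1* and *Cfp* held no match to any of the 7. Starts here are those of the RefSeq windows, which for some genes differ from the GENCODE positions given above. The windows of *C1qc* (136892915 to 136893164) and *C5ar1* (16259339 to 16259588) lie partly within the GENCODE spans of these genes. That of *C3ar1* does so by a few bases. A match or its lack describes these letters alone.

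In resting wild type BMDMs, 6 of the 8 genes were among the most abundant transcripts, ranking from 23 (*C1qb*) to 161 (*C5ar1*) of 22975 genes with a count. *C1qb* stood at 1091, 1129 and 1070 scaled FPKM in the 3 libraries. The next in order were *C1qc* at 439 ± 13.8 (SD, n = 3), *C3ar1* at 307 ± 0.583, *Cfp* at 223 ± 3.38, *C1qa* at 187 ± 3.68 and *C5ar1* at 155 ± 1.63. *C3* was far lower at 7.12 ± 0.263, and *Cfb* was lowest at 0.195 ± 0.0489, from 46 counts in 3 libraries. No neighbours in this order overlapped between libraries.

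**Figure D1:**
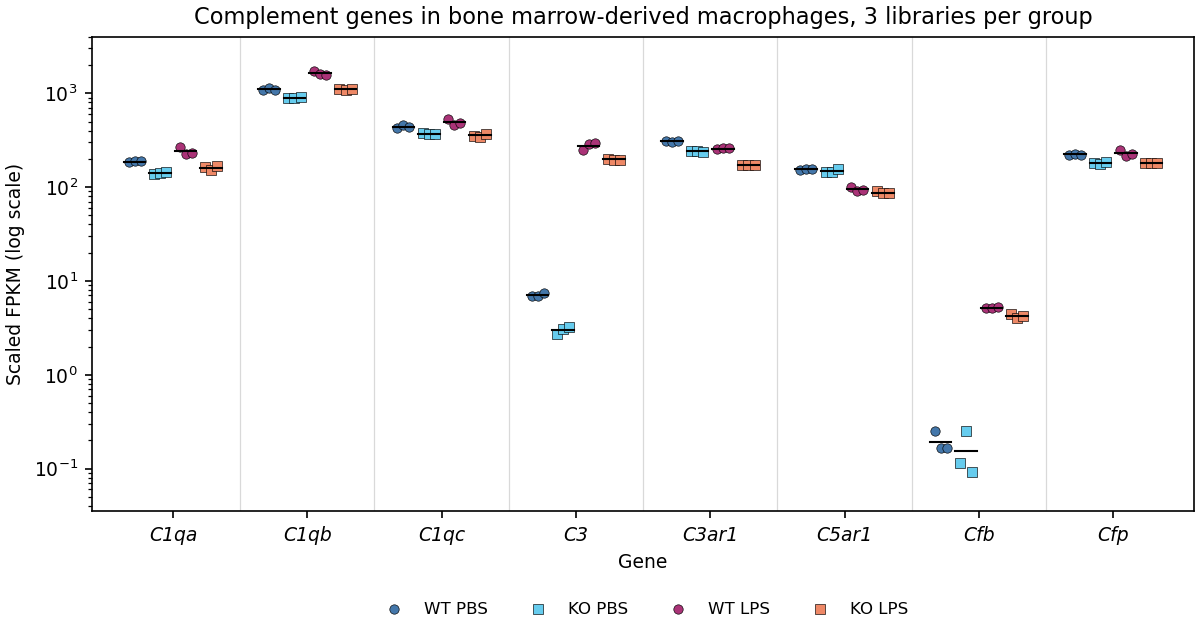
Level of each gene in every BMDM library (scaled FPKM, log axis); points are libraries, coloured by group, and bars are group means. *C3* and *Cfb* stand apart between PBS and LPS, while the other 6 genes keep within a narrow range across the 4 groups.

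LPS raised *C3* and *Cfb* and lowered *C5ar1* in BMDMs. In wild type cells *C3* rose from 6.95, 6.99 and 7.42 to 248, 289 and 295 scaled FPKM, a 39.0-fold rise (log2 5.28, SE 0.06, adjusted p = 5.46e-34). *Cfb* rose from 0.251, 0.167 and 0.166 to 5.13, 5.10 and 5.22, or 26.1-fold (log2 4.71, SE 0.17, adjusted p = 1.21e-20), on 46 counts before and 722 after. The C5a receptor gene *C5ar1* fell from 154, 155 and 157 to 101, 90.2 and 92.3 (log2 -0.72, SE 0.04, adjusted p = 5.3e-16). For these 3 genes no library with LPS overlapped one with PBS, and the same held for *C1qa*, *C1qb*, *C1qc* and *C3ar1*. *Cfp* overlapped. How many of all genes did not overlap was not counted. By the rule for calls, 3 of 8 genes were called, 2 higher and 1 lower, beside 55.1% of all genes called, 24.7% higher and 30.3% lower. The median log2 change was 0.26 over the 8 genes and -0.07 over all genes.

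The remaining 5 genes stayed below the fold threshold in wild type BMDMs. *C1qb* went from 1097 ± 30.1 to 1633 ± 87.2 scaled FPKM (log2 0.57, SE 0.03, adjusted p = 1.51e-15), just short of 1.5-fold. It was called higher with RLE factors and DESeq2 (0.62 in both), with the 2 groups alone in the fit (0.59), and without replicate 2 with PBS (0.59) or replicate 2 or 3 with LPS (0.61). For *C1qa* the log2 difference was 0.36 (SE 0.05), for *C1qc* 0.16 (SE 0.04), for *C3ar1* -0.25 (SE 0.03) and for *Cfp* 0.04 (SE 0.04). These small values depend on the scaling. Scaled by library totals alone, as deposited FPKM are, the median gene moved by -0.76 on the log2 scale, and *C1qa* came to -0.40, *C1qb* to -0.19, *C1qc* to -0.61, *Cfp* to -0.72 and *C3ar1* to -1.02. The direction for the 3 C1q genes and *Cfp* thus turned with the scaling, while *C3* and *Cfb* rose and *C5ar1* fell on both scales.

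Knockout BMDMs gave the same calls with LPS. *C3* rose from 2.72, 3.09 and 3.22 to 201, 194 and 196 scaled FPKM, a 65.6-fold rise (log2 6.03, SE 0.06, adjusted p = 2.07e-34). *Cfb* rose 26.5-fold, from 0.153 ± 0.0857 to 4.25 ± 0.178 (log2 4.73, SE 0.19, adjusted p = 9.18e-20). *C5ar1* fell from 148 ± 6.66 to 87.5 ± 2.24 (log2 -0.76, SE 0.04, adjusted p = 1.45e-16). These were 3 of 8 genes, 2 higher and 1 lower, against 52.6% of all genes called, 23.5% higher and 29.1% lower. *C3ar1* was at 242 ± 4.65 with PBS and 172 ± 1.48 with LPS (log2 -0.49, SE 0.03, adjusted p = 2.07e-15), under the fold threshold. *C1qa*, *C1qb*, *C1qc* and *Cfp* had log2 differences of 0.19, 0.29, -0.06 and -0.02.

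**Figure D2:**
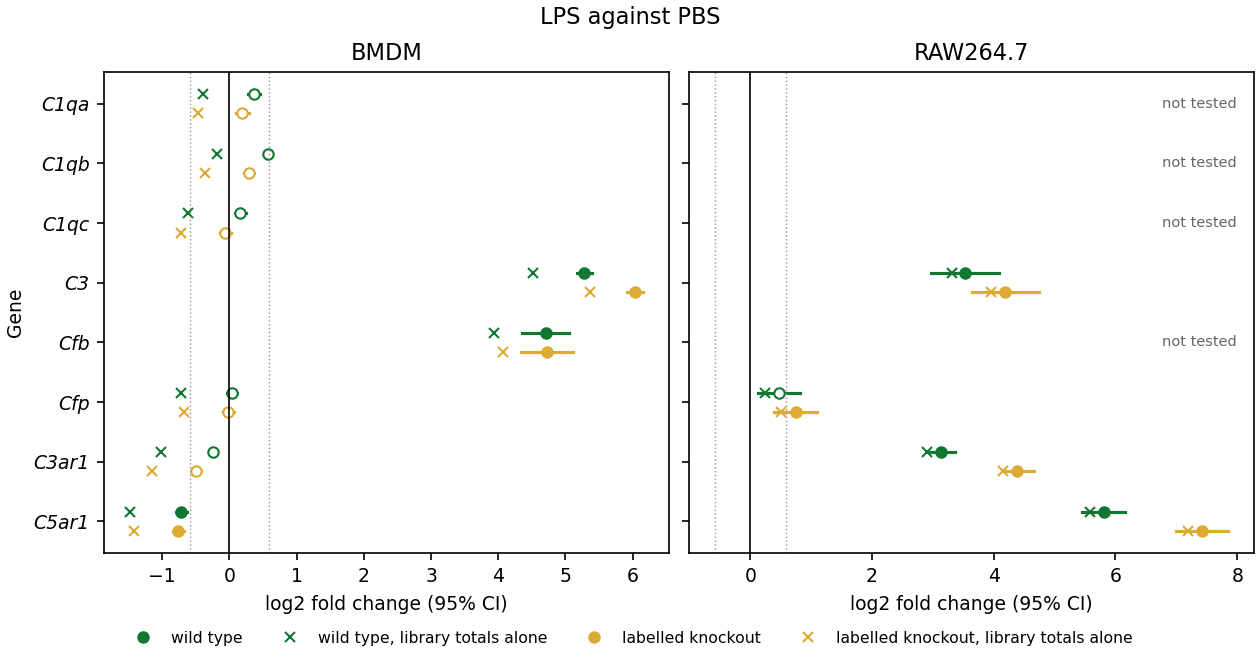
Log2 fold change with LPS for each gene in BMDMs and RAW264.7, with 95% confidence intervals; filled circles were called, open ones were not, dotted lines mark 1.5-fold, and crosses show the same change scaled by library totals alone. In BMDMs the crosses lie below 0 for all 3 C1q genes and *Cfp*, where the wild type circles lie above 0; *C3* and *Cfb* stay far above 0.

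Ratios of 2 genes within a library need no library scaling, and show where the abundant genes moved unequally. In wild type BMDMs the level of *C3ar1* relative to *C1qb* was 0.28 ± 0.00814 with PBS and 0.158 ± 0.00974 with LPS, and that of *C5ar1* relative to *C1qb* was 0.142 ± 0.00505 and 0.0579 ± 0.000962. Both receptor genes thus lost ground to *C1qb*, in every library. Among the C1q chains, which assemble in equal numbers, transcripts were unequal: *C1qb* stood at 5.86 ± 0.139 times *C1qa* and *C1qc* at 2.35 ± 0.0342 times *C1qa* with PBS. With LPS, *C1qb* to *C1qa* was 6.81 ± 0.226 and *C1qc* to *C1qa* 2.04 ± 0.0508, so that *C1qb* to *C1qc* went from 2.5 ± 0.0483 to 3.34 ± 0.0796, without overlap between libraries. *C3ar1* to *C5ar1* went from 1.97 ± 0.0177 to 2.73 ± 0.191. These ratios were not tested.

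**Figure D3:**
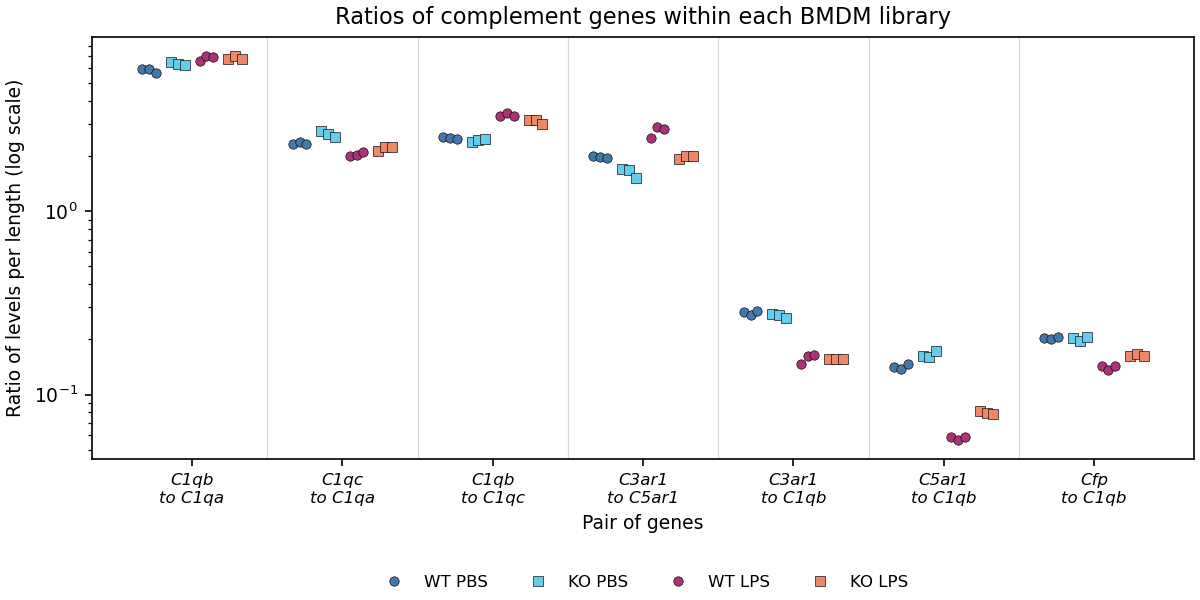
Ratio of the levels of 2 genes within each BMDM library (log axis), coloured by group. The 6 libraries with LPS lie below the 6 with PBS for *C3ar1* and *C5ar1* relative to *C1qb*, and above them for *C1qb* relative to *C1qc*.

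At rest, *C3* RNA was 2.37-fold lower in knockout than in wild type BMDMs, and 5 other genes were lower by smaller margins. *C3* was at 6.95, 6.99 and 7.42 scaled FPKM in wild type and at 2.72, 3.09 and 3.22 in knockout libraries, which do not overlap (log2 -1.24, SE 0.07, adjusted p = 8.45e-15). *C3* was the 1 gene of 8 called lower, beside 3.61% of all genes called, 1.73% higher and 1.88% lower. *C1qa* was 1.32-fold lower at 142 ± 4.39 against 187 ± 3.68 (log2 -0.40, SE 0.05, adjusted p = 6.6e-08), below the fold threshold. *C1qb* (log2 -0.29), *C1qc* (-0.24), *C3ar1* (-0.34) and *Cfp* (-0.30) had smaller differences, each with an adjusted p of at most 2.48e-05 and no overlap between libraries. Counted by adjusted p at any fold, 6 of 8 genes were lower and 0 higher, and 8.24% of all genes were lower by that rule. *C5ar1* (log2 -0.07, SE 0.04, 95% CI -0.15 to 0.01) and *Cfb* (log2 -0.30, SE 0.33, 95% CI -0.98 to 0.39) overlapped between genotypes.

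With LPS, 7 of the 8 genes were lower in knockout BMDMs by adjusted p, and none passed the fold threshold. *C3ar1* was at 255, 259 and 259 scaled FPKM in wild type and 173, 170.3 and 173 in knockout BMDMs (log2 -0.58, SE 0.03, adjusted p = 7.99e-16), and *C1qb* at 1734, 1588 and 1578 against 1109, 1084 and 1112 (log2 -0.57, SE 0.03, adjusted p = 3.89e-14). *C1qa* also differed by log2 -0.57 (SE 0.05), *C1qc* by -0.46 (SE 0.04), *C3* by -0.49 (SE 0.05) and *Cfp* by -0.36 (SE 0.04). *C5ar1* differed little (log2 -0.11, SE 0.04, adjusted p = 0.0374), and *Cfb* missed the threshold (log2 -0.28, SE 0.11, adjusted p = 0.0532). All 7 genes other than *Cfb* were lower by adjusted p at any fold, as were 17.4% of all genes. All 8 had an unadjusted p under 0.05, and how many of all genes did so was not counted. With the fold threshold, 0 of 8 were called, beside 8.91% of all genes called, 4.42% higher and 4.49% lower. *C1qa*, *C1qb* and *C3ar1* lie close to the threshold: DESeq2 on the same counts called *C1qa* (-0.59) and *C3ar1* (-0.60), *C1qa* was also called without wild type replicate 2 or 3 or knockout replicate 1 or 3 with LPS, *C1qb* without wild type replicate 2 or 3, and *C3ar1* without replicate 1 of either genotype. Over the alternatives run, the log2 difference ran from -0.62 to -0.42 for *C1qa*, from -0.59 to -0.42 for *C1qb* and from -0.60 to -0.44 for *C3ar1*. With library totals alone and in both limma fits *C5ar1* turned to 0.03. The median log2 difference over the 8 genes was -0.48, and 0.01 over all genes. The summed level of the 7 macrophage markers was 15949 to 16226 scaled FPKM in wild type and 15168 to 15419 in knockout BMDMs with LPS, and 11660.4 to 11942 and 12707 to 13604 with PBS. Most of this sum was *Lyz2*, at a mean of 9751 in wild type and 11514 in knockout BMDMs with PBS. *Csf1r* was at 295 and 302. The other markers had lower means in knockout: *Adgre1* 303 and 262, *Cd68* 1311 and 1119, *Fcgr1* 93.9 and 41.2. *Itgam* came to 39.3 and 33.6, and *Mertk* to 35.4 and 32.7. With LPS all but *Adgre1* (438 and 439) had lower means in knockout, *Lyz2* at 13407 and 13198 and *Fcgr1* at 350 and 203. The part of these markers in the differences was not tested.

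**Figure D4:**
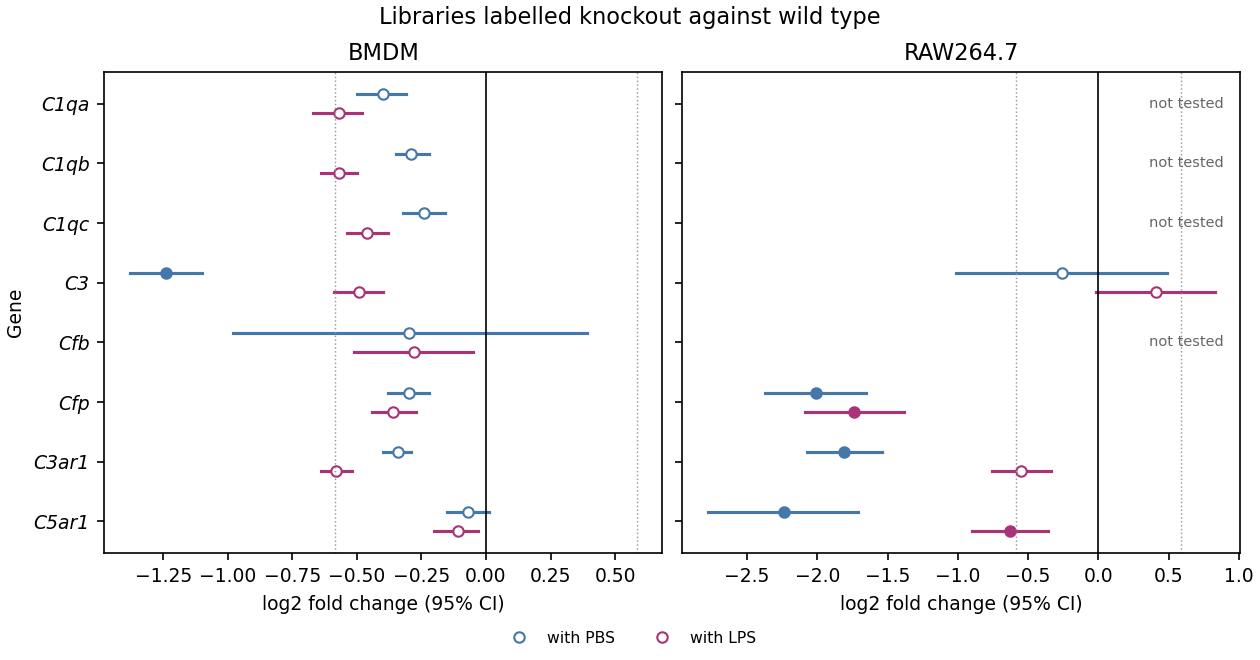
Log2 fold change of libraries labelled knockout against wild type for each gene, with PBS and with LPS, and 95% confidence intervals; filled circles were called and dotted lines mark 1.5-fold. In BMDMs the estimates lie below 0 for all 8 genes, and *C3* with PBS is the filled one; in RAW264.7 *Cfp*, *C3ar1* and *C5ar1* lie below 0 and *C3* crosses it.

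The response to LPS itself differed by genotype for *C3* in BMDMs. The interaction was 0.75 on the log2 scale (SE 0.08, adjusted p = 4.74e-08), a 1.68-fold larger rise in knockout cells from a lower start, and *C3* was the 1 gene of 8 called, beside 5.53% of all genes called, 3.04% higher and 2.49% lower. For *C1qb* the interaction was -0.28 (SE 0.05, adjusted p = 5e-05), for *C1qc* -0.22 (SE 0.06, adjusted p = 0.0047) and for *C3ar1* -0.24 (SE 0.04, adjusted p = 6.23e-05), all below the fold threshold. *Cfb*, which rose with *C3* in both genotypes, had an interaction of 0.02 (SE 0.31, 95% CI -0.61 to 0.65). *C5ar1* and *Cfp* had -0.05 (95% CI -0.16 to 0.07) and -0.06 (95% CI -0.17 to 0.06).

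RAW264.7 cells transcribed a narrower part of the system. *C1qa* and *C1qc* had 0 counts in all 12 libraries, and *C1qb* had 2 counts in 1 wild type library with LPS and 0 in the other 11. A count of 0 allows at most 3 counts per library, which is up to 0.25 FPKM for *C1qa*, 0.24 for *C1qb* and 0.13 for *C1qc*; such limits cover counting error only. *Cfb* had 8 counts in the 3 wild type libraries with PBS, 7 in those labelled knockout with PBS, 35 in wild type with LPS and 8 in those labelled knockout with LPS, under the filter on counts and so not tested. With no count filter, its log2 change with LPS in wild type was 2.35 (adjusted p = 0.0204) and that between the groups with LPS -1.99 (adjusted p = 0.0578). The latter was called with those 2 groups alone in the fit (-1.94, adjusted p = 0.00691) and in limma on log2(FPKM + 0.1) (-1.28, adjusted p = 0.0441). It was also called without wild type replicate 3 (-1.96, adjusted p = 0.0478) or labelled knockout replicate 1 with PBS (-1.95, adjusted p = 0.0099). No call was made without labelled knockout replicate 1 (-1.42, adjusted p = 0.165) or 3 (-1.80, adjusted p = 0.148) with LPS. The same held without wild type replicate 1 (adjusted p = 0.0766) or labelled knockout replicate 2 (adjusted p = 0.0666) with PBS, and in limma on log2(FPKM + 1) (-0.27). With the count filter, only 4 of the 8 genes were tested. In wild type cells with PBS, *Cfp* was by far the most abundant at 107 ± 7.08 scaled FPKM, followed by *C3ar1* at 3.07 ± 0.141, *C5ar1* at 1.22 ± 0.289 and *C3* at 0.162 ± 0.0426, with no overlap between neighbours.

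**Figure D5:**
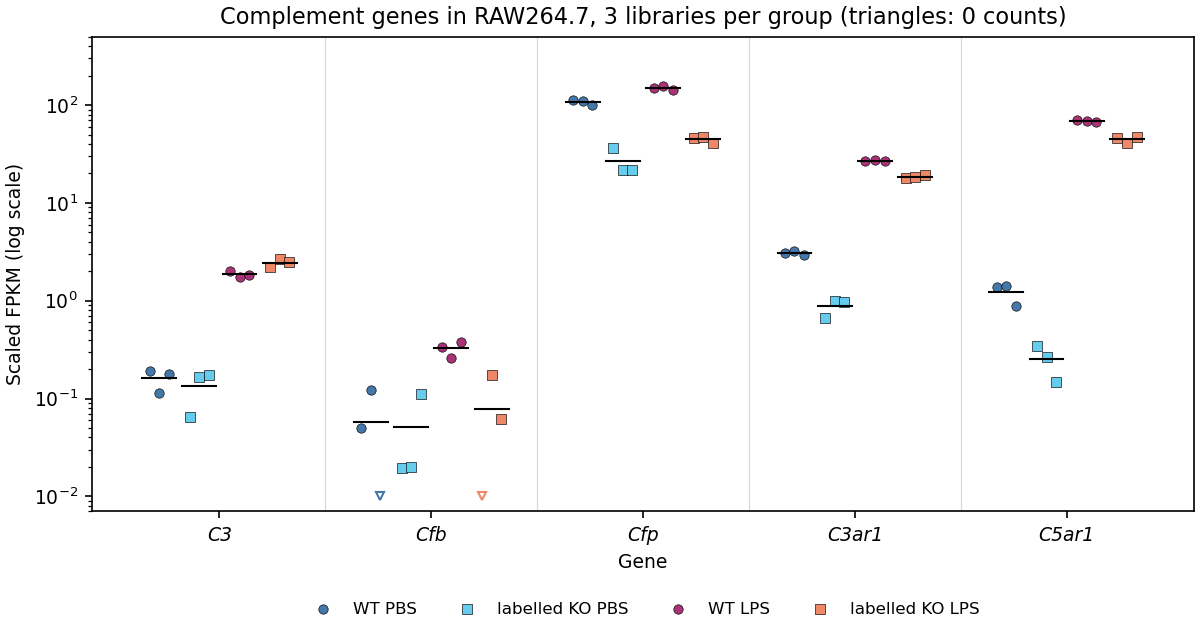
Level of 5 genes in every RAW264.7 library (scaled FPKM, log axis); points are libraries, bars are group means and open triangles at the foot are libraries with 0 counts. *C3*, *C3ar1* and *C5ar1* are higher in all libraries with LPS, and *Cfp* is lower in all libraries labelled knockout.

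LPS raised both receptor genes in RAW264.7. In wild type cells *C5ar1* rose from 1.37, 1.40 and 0.887 to 70.1, 69.6 and 67.0 scaled FPKM, or 56.0-fold (log2 5.81, SE 0.16, adjusted p = 1.55e-11). *C3ar1* rose from 3.05, 3.22 and 2.95 to 26.8, 27.4 and 27.0, or 8.8-fold (log2 3.14, SE 0.11, adjusted p = 1.07e-10). *C3* rose 11.5-fold, though only to 2.03, 1.73 and 1.82 (log2 3.53, SE 0.26, adjusted p = 1.51e-07). *Cfp* went from 107 ± 7.08 to 148 ± 6.53 (log2 0.47, SE 0.16, adjusted p = 0.027), below the fold threshold. Of the 4 genes, 3 were called higher and 0 lower, where 30.3% of all genes were called, 14.2% higher and 16.1% lower. Since *C5ar1* rose more than *C3ar1*, their order turned: *C3ar1* to *C5ar1* was 2.61 ± 0.613 with PBS and 0.393 ± 0.0107 with LPS.

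In the libraries labelled knockout, LPS raised all 4 genes, against 36.9% of all genes called, 17.0% higher and 19.8% lower. *C5ar1* rose from 0.346, 0.264 and 0.148 to 46.3, 40.6 and 46.7 scaled FPKM (log2 7.42, SE 0.20, adjusted p = 7.39e-12), from a base of 34 counts in 3 libraries. *C3ar1* rose from 0.671, 0.998 and 0.974 to 18.1, 18.2 and 19.2 (log2 4.39, SE 0.12, adjusted p = 1.15e-11). *C3* rose from 0.0648, 0.165 and 0.173 to 2.22, 2.64 and 2.50 (log2 4.19, SE 0.26, adjusted p = 2.11e-08), and *Cfp* from 36.2, 21.5 and 21.9 to 45.9, 46.8 and 40.9 (log2 0.75, SE 0.16, adjusted p = 0.00183). Replicate 1 with PBS stands apart from the other two in *Cfp*, *C3ar1* and *C3*. Without it the rise of *Cfp* came to 1.03 and that of *C3* to 3.85 on the log2 scale; with library totals alone *Cfp* came to 0.51 and lost its call.

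At rest, the libraries labelled knockout had less *Cfp*, *C3ar1* and *C5ar1* than wild type RAW264.7. *Cfp* stood at 113, 109 and 99.4 scaled FPKM in wild type and at 36.2, 21.5 and 21.9 in the libraries labelled knockout, a 4.03-fold fall (log2 -2.01, SE 0.17, adjusted p = 2.64e-06). *C3ar1* fell 3.49-fold, from 3.07 ± 0.141 to 0.881 ± 0.182 (log2 -1.81, SE 0.12, adjusted p = 5.16e-07), and *C5ar1* 4.73-fold, from 1.22 ± 0.289 to 0.253 ± 0.0992 (log2 -2.24, SE 0.25, adjusted p = 3.56e-05). None of these libraries overlapped with wild type. *C3* overlapped (log2 -0.26, SE 0.34, 95% CI -1.01 to 0.49). Thus 3 of 4 genes were called lower and 0 higher, beside 22.1% of all genes called, 13.4% higher and 8.74% lower. Without replicate 1 of the libraries labelled knockout the log2 values were -2.30 for *Cfp*, -1.64 for *C3ar1*, -2.54 for *C5ar1* and 0.09 for *C3*, and 5243 genes were called in place of 3128.

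With LPS, *Cfp* was again lower in the libraries labelled knockout, at 45.9, 46.8 and 40.9 against 148, 155 and 142 scaled FPKM (log2 -1.74, SE 0.16, adjusted p = 6.66e-06). *C5ar1* was 1.55-fold lower, at 44.6 ± 3.42 against 68.9 ± 1.65 (log2 -0.63, SE 0.12, adjusted p = 0.00147), a call that was lost without replicate 2 of the libraries labelled knockout (log2 -0.56) and in limma on log2(FPKM + 0.1) (log2 -0.60, adjusted p = 0.0816). *C3ar1* was 1.46-fold lower, at 18.5 ± 0.611 against 27.1 ± 0.303 (log2 -0.55, SE 0.10, adjusted p = 0.000823), short of the threshold. *C3* was at 2.22, 2.64 and 2.50 against 2.03, 1.73 and 1.82, without overlap but above the p threshold (log2 0.41, SE 0.19, adjusted p = 0.097, or 0.0144 without replicate 1 with PBS in the group labelled knockout). Hence 2 of 4 genes were called lower and 0 higher, where 32.0% of all genes were called, 16.5% higher and 15.5% lower.

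The interaction in RAW264.7 was called for both receptor genes, *C3ar1* at 1.26 (SE 0.16, adjusted p = 0.000586) and *C5ar1* at 1.61 (SE 0.28, adjusted p = 0.00519) on the log2 scale, beside 3.11% of all genes called, 1.29% higher and 1.81% lower. Their deficit in the libraries labelled knockout was thus larger with PBS than with LPS. *C5ar1* lost this call in the limma fit of log2(FPKM + 0.1), at 1.32 with an adjusted p of 0.0828, and its range over all alternatives was 0.26 to 1.91. *C3* (0.66, SE 0.40) and *Cfp* (0.28, SE 0.23) had no called interaction. Without labelled knockout replicate 1 with PBS, *C3* came to 0.32 (SE 0.41) and *Cfp* to 0.57 (SE 0.07, adjusted p = 3.4e-09), still below the fold threshold. Macrophage markers also differed between these groups: the summed level of the 7 was 2729 to 2772 scaled FPKM in wild type and 955 to 1176 in the libraries labelled knockout with PBS, and 2971 to 3144 and 889 to 925 with LPS. *Lyz2* was at 1926 and 289 in the 2 groups with PBS, while *Csf1r* was at 247 and 309. A list of 5 dendritic cell markers, chiefly *Siglech*, summed to 1.02 to 1.28 and 7.88 to 9.18 with PBS, and to 0.915 to 1.09 and 3.11 to 3.20 with LPS; in BMDMs it summed to at most 0.493. Their part in the differences of the complement genes was not tested.

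Side by side, the receptor genes answered LPS in opposite directions in the 2 cell types. *C5ar1* had a log2 change of 5.81 in wild type RAW264.7, from 1.22 scaled FPKM, and of -0.72 in wild type BMDMs, from 155. For *C3ar1* the values were 3.14 from 3.07, and -0.25 from 307. Even after LPS, *C3ar1* in RAW264.7 reached 27.1 scaled FPKM, below every BMDM group, whereas *C5ar1* at 68.9 came near the 94.6 of wild type BMDMs with LPS. *C3* rose in both cell types, to 1.86 in RAW264.7 and 277 in BMDMs. The tables were normalised apart, so the difference between cell types was not tested.

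The order of a gene's 4 group means also set the members apart in BMDMs. *C3* and *Cfb* shared the order wild type with LPS, knockout with LPS, wild type with PBS, knockout with PBS, and across the 12 libraries their log2 levels had a Pearson r of 0.99. *C3ar1* ran from wild type with PBS (307) through wild type with LPS (258) and knockout with PBS (242) to knockout with LPS (172), with no overlap between neighbours. On deposited FPKM the middle groups changed places, with 191 in wild type with LPS and 313 in knockout with PBS. *C5ar1* ran from 155 and 148 with PBS, which overlap, to 94.6 and 87.5 with LPS (70.3 and 71.8 on deposited FPKM), and its r with *C3* was -0.96. *C1qa* with *C1qb* gave 0.95, but *C1qb* with *C3ar1* 0.14, and the latter came to 0.84 on deposited FPKM. In RAW264.7 *C3ar1* and *C5ar1* gave 0.99. Such values over 12 libraries follow the 4 groups and the scaling, and are descriptions.

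Other complement genes were followed in a list of 48, of which 18 passed the count filter in each cell type. In BMDMs with LPS, 6 of the 18 were called higher and 3 lower in wild type, beside 55.1% of all genes called. *C1ra*, the protease that C1q activates, rose from 1.26 ± 0.132 to 10.1 ± 0.223 scaled FPKM (log2 3.01, SE 0.10, adjusted p = 3.35e-22), *Cr1l* (Crry), which protects cells from C3b deposits, from 8.57 ± 0.25 to 19.6 ± 0.233 (log2 1.19, SE 0.04), and *Cd93* fell from 116 ± 0.806 to 59.5 ± 3.78 (log2 -0.96, SE 0.04). The second C5a receptor gene *C5ar2*, singled out after its values were seen, went from 2.47 to 0.379 scaled FPKM (log2 -2.70, adjusted p = 3.89e-16), the direction of *C5ar1*. In knockout BMDMs 3 were called higher and 4 lower, where 52.6% of all genes were called.

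Between genotypes in BMDMs, 1 of the 18 was called with PBS and 5 with LPS, all lower in knockout, where 1.88% and 4.49% of all genes were called lower. *C1ra* fell with PBS, from 1.26 ± 0.132 to 0.781 ± 0.162 (log2 -0.68, SE 0.14, adjusted p = 0.000643), and with LPS, from 10.1 ± 0.223 to 4.57 ± 0.0427 (log2 -1.15, SE 0.09, adjusted p = 4.29e-12). *Fcna*, a ficolin that starts the lectin pathway, fell with LPS from 4.21 ± 0.41 to 2.78 ± 0.293 (log2 -0.60, SE 0.16, adjusted p = 0.00451). The median log2 difference over the 18 was -0.02 at rest and -0.17 under LPS.

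In RAW264.7 the libraries labelled knockout had 4 of the 18 called lower with PBS and 5 with LPS. Of all genes, 8.74% and 15.5% were called lower. Called higher were 1 of the 18 with PBS and 2 with LPS, beside 13.4% and 16.5% of all genes. *Fcna* fell from 11.6 ± 0.747 to 2.03 ± 0.477 with PBS (log2 -2.51, SE 0.20, adjusted p = 1.85e-06), and *Itgam*, the alpha chain of complement receptor 3 and also in the macrophage list, from 6.03 ± 0.365 to 1.71 ± 0.245 (log2 -1.81, SE 0.14, adjusted p = 1.24e-06). LPS called 2 higher and 2 lower in wild type cells and 2 higher and 3 lower in those labelled knockout, beside 30.3% and 36.9% of all genes called. Among them *Itgax*, the alpha chain of complement receptor 4, rose from 0.0961 ± 0.0216 to 1.22 ± 0.323 in wild type (log2 3.65, SE 0.37, adjusted p = 4.02e-06), and *Colec12*, a scavenger receptor with a collectin domain, fell from 27.9 ± 1.34 to 15.3 ± 0.498 (log2 -0.87, SE 0.08, adjusted p = 1.72e-06).

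The genes closest in pattern to each of the 8 were ranked by the mean Pearson r of their log2 levels over the 12 libraries of each cell type. *C3* was followed most closely by *Parp14* (0.997), *Gm20559* (0.996) and *Helz2* (0.996), and *Cfb* by *Ccl7* (0.919). The value for *Ccl7* joins 0.991 in BMDMs with 0.847 in RAW264.7, where *Cfb* had 58 counts over 12 libraries, too few to be tested. *C5ar1* was nearest to *Snx5* (0.974), *C3ar1* to *Nabp1* (0.949) and *Cfp* to *Ifi27l2a* (0.93). For the C1q genes, with no counts to rank in RAW264.7, BMDMs alone were used, and *C1qb* was nearest to *Evi2a* (0.996), *C1qa* to *Hexa* (0.985) and *C1qc* to *Itm2b* (0.98). On deposited FPKM *Parp14*, *Ccl7*, *Nabp1* and *Itm2b* kept first place, and the other 4 genes had another nearest gene.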

How the data were processed

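Poly(A) RNA was sequenced by the authors in 2 x 150 base reads. They deposited 1 table per cell type with whole-number counts and FPKM per gene; recomputed from count, exonic length and library total, the FPKM agreed to 1% for 99.9% of the 122116 RAW264.7 values above 50 counts and for 99.5% of the 123096 BMDM values, so they carry no further scaling. The submitters' processing notes name mm10, but 1472 of 52073 gene identifiers shared with GENCODE M21 (GRCm38) have the same start and end, so the tables' coordinates were not used. The sources used here do not give the aligner, counting program or strand setting.

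The study's methods use limma. Since the tables hold counts and LPS moved the TMM factors, the main test was edgeR 4.0.16 (R 4.3.3) on the deposited counts with TMM factors, glmQLFit and glmQLFTest, 1 fit of 4 group means per cell type, genes with a mean of at least 5 counts over 12 libraries, and calls at adjusted p under 0.05 and 1.5-fold. The comparisons set groups labelled knockout and wild type against each other under PBS and under LPS, then LPS against PBS in each, with the interaction. The alternatives were RLE factors, library totals alone, DESeq2 1.42.0, limma 3.58.1 on log2(FPKM + 0.1) or log2(FPKM + 1), no filter, filterByExpr, the groups compared alone, a replicate block, adjusted p alone, and each library left out. Tested on simulated data for the knockout comparison with PBS, edgeR recovered 89% and 98% of genes changed by log2 1 and 2 in RAW264.7 (14161 genes, 4 false calls) and 95% and 100% in BMDMs (14512 genes, 4 false calls).

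Named were all 8 genes, the 3 called genes of the other complement list with the smallest adjusted p and a mean of at least 1 scaled FPKM in a group, the 3 genes of nearest pattern (a mean of at least 1 scaled FPKM; in BMDMs alone for C1q, a change made after the counts of 0 were seen) and *Olfml3*. The genes, lists and motifs were chosen with earlier results of these data known. P-values rest on the spread between the 3 libraries of a group, pooled over the 4 groups of a fit and drawn towards that of other genes. The study calls these libraries biological replicates, and how far they share a mouse or culture is not stated. 1 gene that the rule names is not reported here. The columns of GO annotation were not used.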

Additional observations from a re-analysis of the deposited data

Results flagged for a closer look

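The response to LPS differed between the groups labelled wild type and knockout for 3 of the genes, by the interaction term. In RAW264.7 the interaction was 1.26 for *C3ar1* and 1.61 for *C5ar1* on the log2 scale, with a larger rise in the libraries labelled knockout, whose levels with PBS were lower. In BMDMs it was 0.75 for *C3*, with a larger rise in knockout cells from a lower start.

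The libraries of the 2 cell types moved in opposite directions, without overlap between groups, for 3 genes. The difference between cell types was not tested, and how many of all genes moved so was not counted. In BMDMs the changes of *C3ar1* with LPS were below the fold threshold. With LPS in wild type, *C3ar1* had a log2 change of 3.14 in RAW264.7 and -0.25 in BMDMs, and *C5ar1* 5.81 and -0.72. In the cells labelled knockout, *C3ar1* had 4.39 and -0.49, and *C5ar1* 7.42 and -0.76. For labelled knockout against wild type with LPS, *C3* had 0.41 in RAW264.7, above the p threshold, and -0.49 in BMDMs, below the fold threshold.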

How the results depend on the processing

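Of 60 tests of the 8 genes, 39 kept their direction and their call under every alternative run other than adjusted p alone. That rule, which drops the fold threshold, is left out of these counts and given apart below. Under at least 1 alternative, 3 tests lost a call, 8 gained one and 12 changed sign. Beyond the scaling itself, the cause was not tested. Depth limits *Cfb*, with 46 counts over the 3 resting wild type BMDM libraries. Library totals alone moved the median gene, against TMM, by -0.76 (wild type) and -0.66 (knockout) for LPS in BMDMs, by -0.22 and -0.24 in RAW264.7, and by 0.14 for knockout against wild type BMDMs with LPS; the share of calls that were higher went from 44.9% to 18.7%, 44.6% to 20.1%, 46.8% to 29.8%, 46.2% to 30.4% and 49.7% to 72.3%, and from 55.0% to 72.8% for the BMDM interaction. With it and both limma fits, 6 of the 8 genes were called for LPS in either BMDM genotype (of all 14512 genes, library totals called 10248 in wild type and 9738 in knockout), and log2 changes turned: in wild type, *C1qa* -0.40, -0.41 and -0.40, *C1qb* -0.19, *C1qc* -0.61 and *Cfp* -0.72; in knockout, *C1qa* -0.47 and *C1qb* -0.37. These 3 fits also turned *C5ar1* with LPS (knockout against wild type, 0.03), and the BMDM interactions of *C5ar1* (0.06) and *Cfp* (0.04, 0.05 and 0.05). *Cfb* had an interaction of -0.05 with log2(FPKM + 1). *Cfp* in BMDMs came to -0.01 for LPS in wild type with no count filter, and to 0.02 in knockout with RLE factors and DESeq2. By adjusted p alone, 6 and 7 of the 8 genes passed between BMDM genotypes (PBS, LPS), all lower in knockout, as were 8.24% and 17.4% of all genes. For LPS in wild type and knockout BMDMs 7 and 6 passed, and for the interaction 4. The share of all genes by that rule was not counted for these 3. With the fold threshold it was 55.1%, 52.6% and 5.53%. RLE factors and DESeq2 each called 2 of 8 between BMDM genotypes with LPS. Both limma fits called 1 of the RAW264.7 interactions. Over all genes, limma on log2(FPKM + 1) called 1474 against 3128 for labelled RAW264.7 groups with PBS, 256 against 524 and 439 against 1293 for BMDM genotypes with PBS and with LPS, and 402 against 802 for the BMDM interaction. The first of these counts was 1547 with those 2 groups alone in the fit, and 5243, 1985 and 1987 without labelled knockout replicates 1, 2 and 3 with PBS; without replicate 1 the RAW264.7 interaction counted 890 against 440. With libraries left out in turn, calls ran from 1 to 3 of the genes for labelled RAW264.7 groups with LPS and from 0 to 2 for BMDM genotypes with LPS; *C3* between labelled RAW264.7 groups with PBS ran from -0.48 to 0.09, *Cfp* for LPS in knockout BMDMs from -0.03 to 0.00, and the BMDM interaction of *Cfb* from -0.21 to 0.61. With the replicate number as a replicate block, all 8 genes kept their calls. For labelled RAW264.7 groups with PBS, 3125 genes against 3128 were called. Deviations from the group means correlated from -0.12 to 0.208 between same-numbered libraries. Differently numbered libraries were not set beside them, so these values cannot decide whether the numbers pair the samples.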
